A study of Mus musculus with 7 samples.

Results

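The apelin system and the tip cell marker endocan were followed through 3 genes of an RNA-seq table of mouse lung endothelial cells, out of 38472 genes listed. The genes were chosen by symbol: *Apln*, which encodes the secreted peptide apelin, *Aplnr*, which encodes its receptor, and *Esm1*, which encodes the secreted proteoglycan endocan. *Aplnr* was picked for its value in a single WT library, so its levels are given as a description with no test. The 7 libraries came from cultured mouse lung endothelial cells (MLEC) of C57BL/6 mice. In the 3 AM EC-KO libraries, which the labels call b, d and g, the mice carried a floxed *Adm* gene, which encodes adrenomedullin (AM), and Cre recombinase driven by the promoter of *Cdh5* (VE-cadherin), so that the deletion acts in endothelial cells. The 4 WT libraries, which they call a, c, e and f, were from wild-type mice. The authors describe an isolation from the lungs of 3 mice, with beads against PECAM-1 and then against ICAM-2. They report 3 to 4 such isolates in the study, used at early passages, and at least 3 preparations per genotype for the sequencing. The labels do not tie a library to an animal or an isolation, so each p-value reflects the spread among the 7 libraries, part of which may be technical.

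Apelin acts on a G protein-coupled receptor that signals through inhibitory G proteins and arrestins, and in endothelial cells the pair takes part in vessel growth, vessel calibre and vascular tone. In sprouting vessels of the mouse retina, *Apln* and *Esm1* are known as genes of the tip cell, the leading cell of a sprout, whereas *Aplnr* is typical of the cells behind it and of veins. In the adult mouse lung, *Apln* marks the aerocyte, one kind of alveolar capillary cell, and *Aplnr* marks the other kind, the general capillary cell. Transcription of *Apln* is known to respond to hypoxia, and that of *Esm1* to VEGF.

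Expression was given as FPKM, that is, fragments scaled by transcript length and by the mapped reads of the library, so that levels of different genes can be set beside each other per length. Differences were computed on log2(FPKM + 1) as AM EC-KO minus WT, which understates the change of genes of low expression. *Adm* was at 0.75 to 17.2 FPKM in the AM EC-KO libraries and at 43.8 to 76.1 FPKM in the WT libraries. The endothelial genes *Pecam1* (372 to 444 FPKM in AM EC-KO and 364 to 454 FPKM in WT), *Icam2* (105 to 138 FPKM in AM EC-KO and 111 to 122 FPKM in WT) and *Cdh5* (259 to 295 FPKM in AM EC-KO and 287 to 394 FPKM in WT) were high in all libraries. WT e stood apart from the rest. Its median correlation with the other libraries, across genes, was 0.913, against 0.938 to 0.946 for the others, and it held the highest value of 4830 of the 15604 tested genes (31.0%), against 9.1 to 15.6% in each other library. The depth, estimated from the FPKM that 1 read is worth, was 6.5 to 7.81 M mapped reads.

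*Apln* lies on the minus strand of chromosome X (GRCm38, chrX:48025146-48034853, ENSMUSG00000037010) and has 3 exons. *Esm1* lies on the plus strand of chromosome 13 (chr13:113209659-113218098, ENSMUSG00000042379) and also has 3 exons. *Aplnr* lies on the plus strand of chromosome 2 (chr2:85136225-85139923, ENSMUSG00000044338), and its main transcript is a single exon of 3699 bases. The 250 bases before the start of *Apln* (chrX:48034854-48035103, minus strand) and of *Esm1* (chr13:113209409-113209658, plus strand) are shown 5′ to 3′ because these genes, both known from tip cells, start from windows of unlike composition. The sequences are from RefSeq (GRCm38.p6), and capitals mark the single motif match in each.
Apln: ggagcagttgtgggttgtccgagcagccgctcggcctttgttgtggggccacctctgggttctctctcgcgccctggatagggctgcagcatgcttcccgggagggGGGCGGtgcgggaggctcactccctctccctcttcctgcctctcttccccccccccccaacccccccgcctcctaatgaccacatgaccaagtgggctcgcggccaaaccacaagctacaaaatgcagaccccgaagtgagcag
Esm1: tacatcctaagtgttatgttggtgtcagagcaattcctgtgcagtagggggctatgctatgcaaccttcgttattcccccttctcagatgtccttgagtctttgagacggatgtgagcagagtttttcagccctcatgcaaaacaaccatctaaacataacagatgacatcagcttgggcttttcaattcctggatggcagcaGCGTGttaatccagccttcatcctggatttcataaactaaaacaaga
The window of *Apln* had 65.2% G and C, which placed it at percentile 83.0 of 32851 mouse promoters of this length, and that of *Esm1* had 44.0%, at percentile 21.1, with a median of 52.4% over all. The capitals in *Apln* are GGGCGG, the core of the GC box, found in 32.7% of all these windows. The capitals in *Esm1* are GCGTG, the last bases of a common form of the hypoxia response element, found in 28.2% of them. Both strands were searched, and neither window held the E-box CACGTG, which 6.0% of all windows hold, or its part ACGTG, which 16.6% hold. Neither held the TATA box letters TATAAA, which 12.4% of all windows hold. The forkhead motif GTAAACA, present in 3.2% of all windows, and its variant ATAAACA, present in 4.2%, were also not found. A match is a description of the letters and not of a binding site.

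*Apln*, the ligand, was among the more abundant transcripts of MLEC of both genotypes and did not differ between them beyond the spread of the libraries. It was at 67.4 FPKM in AM EC-KO b, 102 FPKM in d and 77.4 FPKM in g, against 75.0 FPKM in WT a, 160.4 FPKM in c, 74.7 FPKM in e and 94.8 FPKM in f. The groups overlapped: WT c was the highest library, AM EC-KO b the lowest, and the other 5 lay between 74.7 and 102 FPKM. Its level ranked between percentiles 90.3 and 96.0 of the tested genes of each library. The mean was 82.1 ± 17.6 FPKM in AM EC-KO (SD, n = 3) and 101 ± 40.6 FPKM in WT (SD, n = 4). The difference was -0.25 on the log2 scale (SE 0.29), with a limma adjusted p of 0.95 and an exact two-sided permutation p of 0.571. The 95% interval of the difference, from -0.93 to 0.44, spans folds of 0.523 to 1.36. Differences within these bounds are not excluded by these libraries. In bulk RNA, fewer cells of a type and less RNA per cell cannot be told apart.

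A single library set the direction of the difference in means of *Apln*. Without WT c, the mean was 82.1 FPKM in AM EC-KO and 81.5 FPKM in WT. Without WT e, the means were 82.1 FPKM in AM EC-KO and 110.1 FPKM in WT. The interval listed for *Apln* in the table covers only its first exon, of 415 bases, whereas its transcript has 3149 exonic bases. Low FPKM of the 821 genes with such short intervals matched the value of 1 read by transcript length more often than by interval length (31 against 11 genes in AM EC-KO b, and 17 against 4 genes in WT e). That value was itself set by transcript length, on genes that included these 821, which favours this outcome. The FPKM were read as scaled by the transcript, which these counts cannot decide.

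*Aplnr*, the receptor, was near the limit of detection in 6 of the 7 libraries and high in WT e alone. It was at 0.0359 FPKM in AM EC-KO b, 0.0379 FPKM in d and 0.473 FPKM in g, against 27.1 FPKM in WT e, 0.225 FPKM in WT f and a listed 0 in WT a and c. In reads, estimated from the FPKM of 1 read, this was about 1.0 read each in AM EC-KO b and d and 11.4 reads in g, against 729.5 reads in WT e and 6.2 reads in WT f. The groups overlapped apart from WT e, which lay 57.4 times above the next library, AM EC-KO g. In WT e the receptor ranked at percentile 77.2 of the tested genes, and elsewhere between percentiles 3.0 and 17.1. The mean was 0.182 ± 0.252 FPKM in AM EC-KO (SD, n = 3) and 6.84 ± 13.5 FPKM in WT (SD, n = 4), a log2 difference of -1.06. Without WT e the WT mean was 0.075 FPKM and the difference was 0.12, so its direction turned. The pooled value that the table also lists for each genotype was 0.176 FPKM for AM EC-KO and 15.2 FPKM for WT, in which the part of WT e cannot be seen. The pooled WT value was 2.23 times the mean of the libraries, against a median of 1.09 over 12019 genes. A listed 0 in this table can be a failed estimate, since each library listed 190 to 247 tested genes at 0 whose median in libraries above 0 was at least 5 FPKM.

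**Figure D1:**
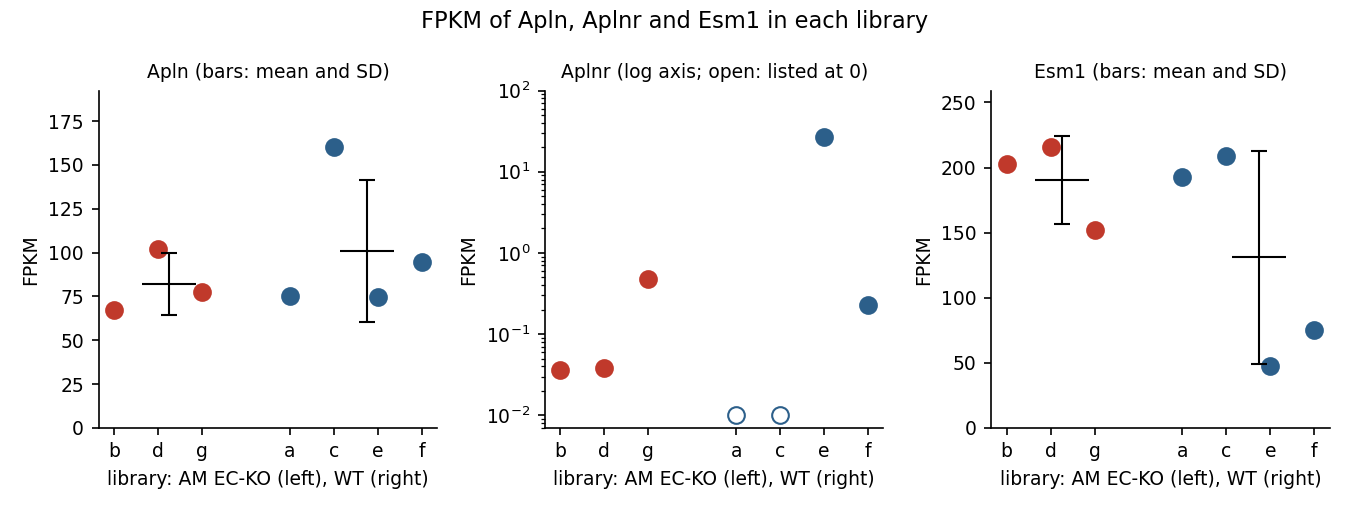
FPKM of *Apln*, *Aplnr* and *Esm1* in each library, AM EC-KO in red at the left and WT in blue at the right, with mean and SD as black bars for *Apln* and *Esm1*. The axis of *Aplnr* is logarithmic, with the 2 libraries listed at 0 as open circles at its foot, and WT e at 27.1 FPKM stands above all others.

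*Esm1*, the tip cell marker, was more abundant per length than *Apln* in every library but WT e and WT f, and its AM EC-KO mean exceeded the WT mean by less than the spread of the libraries. It was at 203 FPKM in AM EC-KO b, 216 FPKM in d and 152 FPKM in g, against 193 FPKM in WT a, 209 FPKM in c, 47.6 FPKM in e and 74.8 FPKM in f. The groups overlapped. The low values were those of WT e and f, whereas WT a and c lay among the AM EC-KO libraries. Its mean was 190.4 ± 33.8 FPKM in AM EC-KO (SD, n = 3) and 131 ± 81.7 FPKM in WT (SD, n = 4), so the SD was 17.8% of the mean in AM EC-KO and 62.3% in WT. The difference was 0.77 on the log2 scale (SE 0.54), with a limma adjusted p of 0.95 and an exact two-sided permutation p of 0.343. Its 95% interval, from -0.49 to 2.04, spans folds of 0.71 to 4.12.

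The distance between the genotypes in *Esm1* was not alike over the library letters. In libraries a to d the mean was 209.5 FPKM in AM EC-KO (n = 2) and 201 FPKM in WT (n = 2), a log2 difference of 0.06. In libraries e to g, AM EC-KO g had 152 FPKM and the 2 WT libraries a mean of 61.2 FPKM, a log2 difference of 1.33 with 1 library in AM EC-KO. The labels do not say what the letters stand for. With a term for the letters e to g in the limma model, the difference was 0.57 (SE 0.30). Without WT e, whose *Esm1* was the lowest and whose *Aplnr* was the highest, the WT mean was 159 FPKM and the difference 0.38. *Apln* was 84.5 FPKM in AM EC-KO and 118 FPKM in WT over letters a to d, and 77.4 FPKM in AM EC-KO and 84.8 FPKM in WT over letters e to g. *Aplnr* was at 0.0369 FPKM in AM EC-KO and at a listed 0 in WT over letters a to d, and at 0.473 FPKM in AM EC-KO and 13.7 FPKM in WT over letters e to g.

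None of the other genes of the apelin pathway passed the limma test between genotypes at a false discovery rate (FDR) of 0.1, where 10 of 15604 genes (0.0641%) passed over the whole table. *Adm*, the deleted gene, did not pass either, with a log2 difference of -3.10 (SE 0.75, limma adjusted p = 0.95). A gene that does not pass can therefore still differ strongly between the genotypes. Of 19 apelin pathway genes, 15 were tested, none had an unadjusted p under 0.05, and their median log2 difference was 0.01, against -0.01 over all tested genes. *Furin*, a protease that can process the apelin precursor, was at 30.7 to 34.1 FPKM in AM EC-KO and 29.4 to 56.6 FPKM in WT, with its highest value in WT e. *Apela*, which encodes the second ligand of the receptor and stands in the table under its older symbol *Gm10664*, was listed at 0 in all libraries. *Mme*, which encodes neprilysin, a peptidase that cleaves apelin, was at 0.0608 to 0.356 FPKM over all 7. Receptor-coupled G proteins were well expressed, with *Gnai2* at 339 to 365 FPKM in AM EC-KO and 284 to 419 FPKM in WT. The smallest unadjusted p of the list was that of *Gnai1*, another inhibitory G protein subunit, at 0.103, with a log2 difference of 0.30 (SE 0.16).

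Downstream of the receptor, *Nos3*, the endothelial nitric oxide synthase, was at 23.7 (b), 19.4 (d) and 43.0 (g) FPKM in AM EC-KO, against 33.6 (a), 31.7 (c), 35.4 (e) and 48.1 (f) FPKM in WT. Its log2 difference was -0.43 (SE 0.28, limma adjusted p = 0.95), and the groups overlapped. *Klf2* and *Klf4*, transcription factors of quiescent endothelium, were both lowest in WT e. Of the 15 tested pathway genes, 6 were lowest there, these among them, and 3 highest. Over all 15604 tested genes, 3577 were lowest and 4830 highest in WT e. *Klf2* was at 10.1 FPKM in WT e against 17.2 to 22.8 FPKM elsewhere, and *Klf4* was at 13.2 FPKM against 23.4 to 32.0 FPKM. *Arrb1*, an arrestin, was listed at 0 in 4 libraries and at 19.4 to 24.3 FPKM in the other 3, a pattern in which failed estimates and absent transcripts cannot be told apart.

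Among 18 tip cell genes, *Apln* and *Esm1* included, none passed the limma test at FDR 0.1, and the median log2 difference was -0.01, with 9 differences above 0 and 9 below. At an unadjusted p under 0.05, 0 were higher and 1 was lower in AM EC-KO, where 1.65% of all tested genes were higher and 1.42% lower. That gene was *Angpt2*, which encodes the TIE2 ligand angiopoietin 2, at 136 (b), 191 (d) and 91.3 (g) FPKM in AM EC-KO, against 233 (a), 346 (c), 256 (e) and 149.5 (f) FPKM in WT. Only AM EC-KO d overlapped the WT range. Its log2 difference was -0.82 (SE 0.34, unadjusted p = 0.046, limma adjusted p = 0.95). *Cxcr4*, a chemokine receptor, had a log2 difference of -0.93 (SE 0.54), and *Kcne3*, a potassium channel subunit, one of -0.93 (SE 0.58), both with a limma adjusted p of 0.95. *Kdr*, the main VEGF receptor, was at 62.3 to 69.3 FPKM in AM EC-KO and 47.0 to 80.7 FPKM in WT. Without WT e, none of the 18 had an unadjusted p under 0.05.

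**Figure D2:**
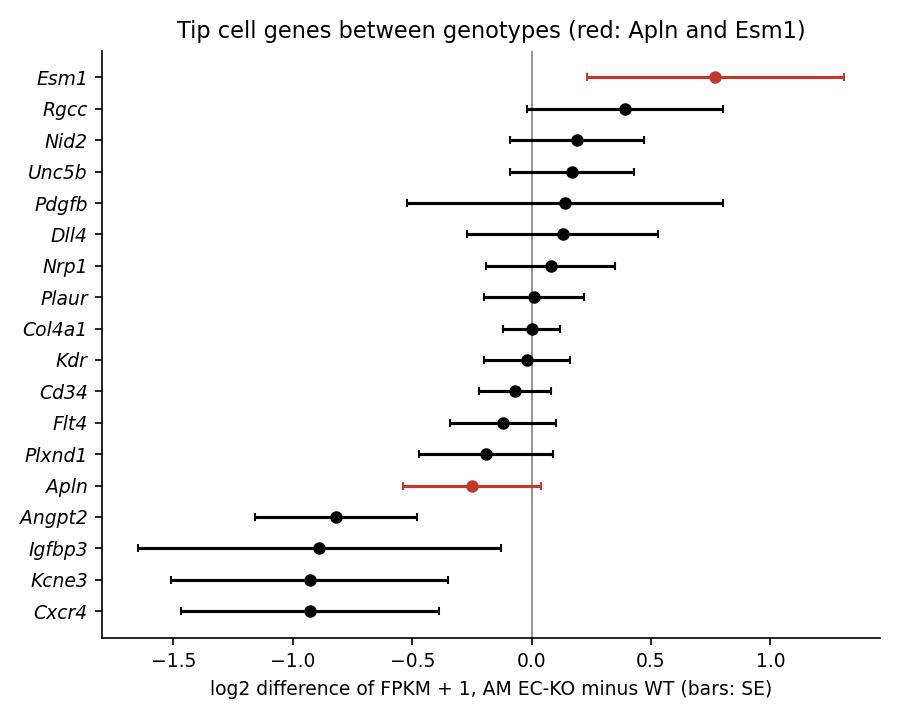
Difference of log2(FPKM + 1), AM EC-KO minus WT, for the 18 tip cell genes, with SE as horizontal bars and *Apln* and *Esm1* in red. *Esm1* has the highest difference, 0.77, and *Apln*, at -0.25, lies among the lower ones; none of these genes passed FDR 0.1.

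WT e was set beside the other 6 libraries because it held both the highest *Aplnr* and the lowest *Esm1*. These values are a description of 1 library with no test. On log2(FPKM + 1), *Aplnr* lay 4.26 above the next library, and 3 of the 15604 tested genes stood out in any library by so much, all of them in WT e. The other genes were *Dcn* (decorin, a matrix proteoglycan of fibroblasts; 227 FPKM in WT e against 2.83 to 8.47 FPKM elsewhere) and *Lrg1* (a secreted glycoprotein; 28.9 FPKM in WT e against at most 0.42 FPKM elsewhere). *Darc*, the table's name for *Ackr1*, a chemokine receptor of venules, reached 12.0 FPKM in WT e, against at most 0.41 FPKM elsewhere.

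Of the other 7 genes of the lung general capillary list, which are known from the cell type that *Aplnr* marks, 3 were highest and 2 lowest in WT e, where 31.0% of all tested genes were highest and 3577 of 15604 lowest. *Gpihbp1*, which anchors lipoprotein lipase, was at 10.9 FPKM in WT e against 0.66 to 2.49 FPKM elsewhere, *Tek*, which encodes TIE2, was at 44.5 FPKM against 12.1 to 20.6 FPKM, and *Cd93* was at 78.5 FPKM against 34.6 to 65.5 FPKM. *Plvap*, which encodes the protein of fenestral diaphragms, and *Lpl*, lipoprotein lipase itself, were the lowest ones, with *Plvap* at 271 FPKM in WT e against 393 to 757 FPKM elsewhere and *Lpl* at 1.14 FPKM against 1.56 to 2.29 FPKM. Of 6 tested aerocyte genes, *Apln* included, 3 were highest in WT e (*Tbx2*, *Fibin* and *Emp2*) and 0 lowest, beside the same 31.0% highest over all tested genes. Of 5 tested venous genes, 3 were highest in WT e, among them *Selp* (P-selectin, 381 FPKM against 156 to 241 FPKM), and *Nrp2*, a neuropilin, was lowest (53.4 FPKM against 61.4 to 70.8 FPKM). *Vwf*, which encodes von Willebrand factor, was at 89.5 FPKM in WT e, at 9.81 FPKM in WT f and listed at 0 in the other 5. Of the aerocyte list, *Car4*, its best known marker, was listed at 0 in all libraries, and *Ednrb*, an endothelin receptor of aerocytes, was at 4.29 to 9.25 FPKM in AM EC-KO and 6.19 to 20.3 FPKM in WT.

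Of 13 tested genes of the hypoxia response list, 9 were highest and 2 lowest in WT e. There *Vegfa* was at 83.8 FPKM against 6.63 to 29.7 FPKM elsewhere and *Hif1a* at 62.4 FPKM against 31.7 to 39.6 FPKM. Over all tested genes, 31.0% were highest and 3577 of 15604 lowest in WT e, shares that also stand beside the counts below. *Apln* and *Esm1* are not on this list. *Apln* was at 74.7 FPKM in WT e, the second lowest of the 7 libraries, and *Esm1* was at its lowest there. Markers of other cell types also had unusual values in this library, in both directions. The fibroblast list, of which 8 of 10 genes were tested, summed to 308 to 367 FPKM in AM EC-KO and 260.5 to 564 FPKM in WT, with 564 FPKM in WT e, 4 of the 8 highest and 1 lowest there. *Dcn* at 227 FPKM and *Col1a2*, a collagen chain, at 83.1 FPKM made up much of that sum. *Col1a2* was also at 49.5 FPKM in AM EC-KO d, at 0.105 FPKM in WT a and listed at 0 in the rest. Failed estimates and absent transcripts cannot be told apart in this pattern. *Thy1*, a surface glycoprotein, was lowest in WT e at 160 FPKM against 210.3 to 291 FPKM elsewhere. The lung epithelial list, of which 3 of 9 genes were tested, summed to 42.2 to 64.3 FPKM in AM EC-KO and 26.9 to 78.7 FPKM in WT, with its lowest sum, 26.9 FPKM, in WT e. All 3 tested genes were lowest there, among them *Krt19*, a keratin, at 1.75 FPKM against 15.8 to 59.0 FPKM elsewhere. *Sftpc*, a surfactant gene of alveolar type II cells that was too rarely above 0 to be tested, was at 10.3 FPKM in WT e and listed at 0 elsewhere, and *Ager* was listed at 0 in all 7. Their part in the levels of *Aplnr* and *Esm1* was not tested.

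**Figure D3:**
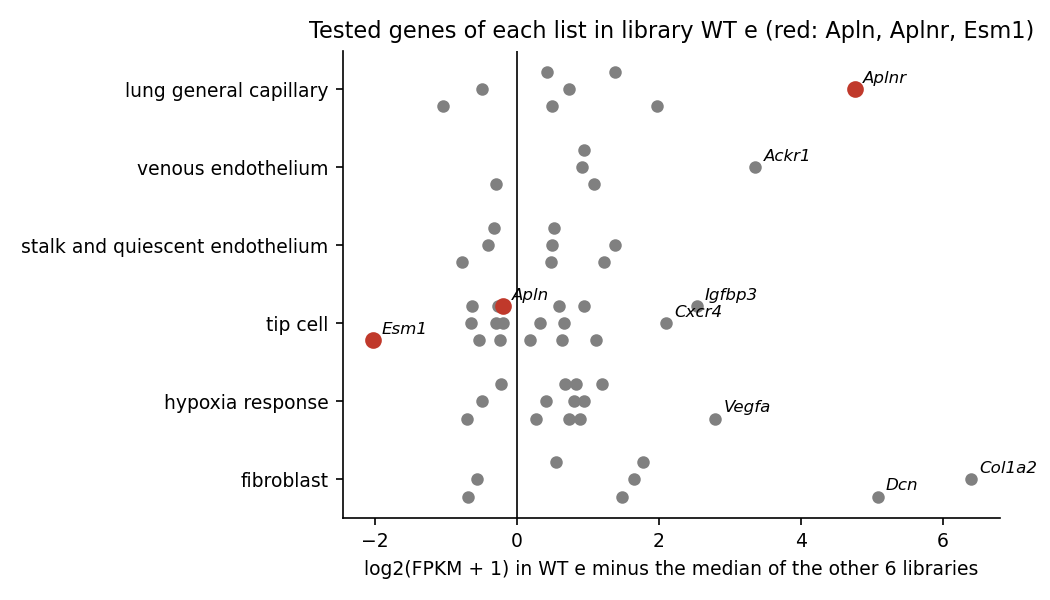
Level of each tested gene in WT e minus its median in the other 6 libraries, on log2(FPKM + 1), by gene list, with *Apln*, *Aplnr* and *Esm1* in red and genes beyond 2 named. *Aplnr* lies far to the right of its list, *Esm1* is the lowest of the tip cell list and *Apln* lies near 0, while *Dcn* and *Col1a2* stand out among fibroblast genes. *Col1a2* was listed at 0 in most of the other libraries.

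The genes most like each of the 3 in their levels over the 7 libraries were found by Pearson correlation of log2(FPKM + 1). The search ran among 9493 or 9494 genes and is a description, since all genes share the libraries. *Esm1* was most like *Bhlhe40*, which encodes a basic helix-loop-helix repressor, with r = 0.990, and r was 0.93 without WT e and f, the libraries farthest from the median of *Esm1*. *Bhlhe40* was at 43.6 (b), 46.5 (d) and 27.8 (g) FPKM in AM EC-KO, against 44.4 (a), 40.5 (c), 10.3 (e) and 16.8 (f) FPKM in WT. Next came *Ptchd1* (0.988, and 0.68 without these libraries), *Atpaf2* (0.986, and 0.83), *Pdgfa* (0.985, and 0.79), a platelet-derived growth factor, and *Srgap3* (0.984, and 0.91). *Pdgfa* was at 48.5 to 62.8 FPKM in AM EC-KO, against 49.2 and 58.4 FPKM in WT a and c, and 23.0 and 32.8 FPKM in WT e and f. All 5 shared the low values in WT e and f.

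*Apln* was most like *Mrps11* (0.982), which encodes a mitochondrial ribosomal protein, *Tada3* (0.972), *Rpl18-ps1* (0.968), *Tram2* (0.957) and *Gap43* (0.956), which encodes a growth cone protein. These correlations rested in part on WT c, and without WT c and AM EC-KO d they were 0.67 to 0.90. *Gap43* came closest in amplitude, at 99.5 FPKM in WT c and 38.5 to 67.8 FPKM in the other 6. The genes most like *Aplnr* were *Rbm27* (0.994), *Mlxip* (0.993), *D14Abb1e*, *Bmp1* and *Rcbtb1* (0.992 each). Their likeness rested on the high value in WT e, and r was 0.26 to 0.79 without WT e and AM EC-KO g. *Bmp1*, a procollagen protease, was at 73.9 FPKM in WT e against 35.8 to 40.7 FPKM elsewhere.

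**Figure D4:**
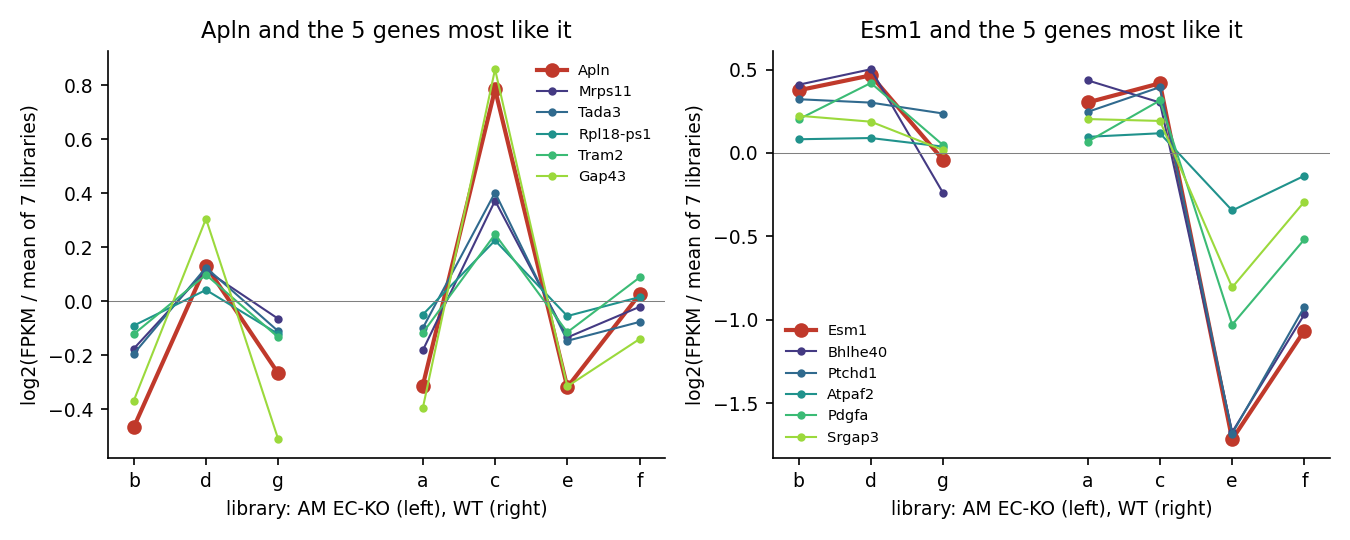
Levels of *Apln* and *Esm1* (red) and of the 5 genes most like each, as log2 of FPKM over the mean of the 7 libraries, with AM EC-KO libraries left of WT libraries. *Apln* and its 5 genes peak in WT c, and *Esm1* and its 5 genes are lowest in WT e and next lowest in WT f.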

How the data were processed

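RNA of 3 AM EC-KO and 4 WT libraries was grouped by the genotype in the labels. The authors trimmed reads with Cutadapt, mapped them to GRCm38 with TopHat2 (version 2.0.6 in the submitters' processing notes, which also name Cufflinks and Cuffdiff) and deposited 1 table of genes with their FPKM by library and by genotype. The fold changes, p-values, q-values and splicing values in the table are the authors' own comparisons and were not used. All library columns matched a label. FPKM are not counts, so log2(FPKM + 1) was tested with limma 3.58.1 (trended empirical Bayes, R 4.3.3, statmod 1.5.0), with Benjamini-Hochberg adjustment over the 15604 genes whose mean reached 0.1 FPKM and that were above 0 in at least 3 libraries. Single values were tested by exact permutation over libraries. The fit was tested on simulated data. Tables and figures were made with Python 3.11.15, pandas 2.3.3, numpy 2.4.6, scipy 1.17.1 and matplotlib 3.10.9.

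Read numbers were estimated from low FPKM of single-transcript genes of 3000 to 4400 bases, which rise in steps of 1 read. No read totals were given, so precision is known only through these estimates. Gene positions are those of GENCODE M21. Promoters are from RefSeq, whose table held *Apln* and *Esm1*, and *Aplnr* was not shown.

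The 3 genes and the lists (apelin pathway, tip cell, stalk and quiescent, venous, arterial, aerocyte, general capillary, vascular and lymphatic endothelium, hypoxia response, fibroblast, smooth muscle and pericyte, myeloid, lung epithelium, mesothelium) were chosen with earlier results of these data known. Named were the 3 genes, list genes past FDR 0.1, up to 3 per list by smallest p, apelin pathway genes with a known role (1 is not reported here), and the 5 most alike genes whose mean reached 1 FPKM. Genes named for their level in WT e, and the others given as examples of a list, were chosen after their values were seen. Alternatives were pseudocounts of 0.1 and 0.01, other filters, quantile, median-of-ratios and TPM scaling, limma without a trend, robust or with array weights, a term for library letters, and each library left out.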

Additional observations from a re-analysis of the deposited data

Results flagged for a closer look

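For 40 genes, the largest gap at either end of the 4 WT values was taken as a share of their whole range. These were the genes that the naming rule gave, the tested apelin pathway genes and the endothelial checks, without *Aplnr* and the genes named for their gap in WT e, whose choice fixes the outcome. The share was above 0.829, which chance gives in about 1 in 20 groups, for 6 genes, and *Apln* and *Esm1* were not among them. WT e was the highest library for *Tek* (0.964), *Hif1a* (0.839) and *Selp* (0.838), and the lowest for *Icam2* (0.839, at 111 FPKM) and *Hdac5* (0.835, listed at 0), a histone deacetylase. These 5 rest on 1 library and are not independent of each other. WT a was highest for *Arrb1* (1.0), which the other WT libraries list at 0.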

How the results depend on the processing

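The differences of *Apln* and *Esm1* stayed short of FDR 0.1 in all 19 alternatives. That of *Apln* ran from -0.41 (without AM EC-KO d) to -0.0012 (without WT c), where it has no direction to speak of and the means in FPKM turned, to 82.1 in AM EC-KO and 81.5 in WT. *Esm1* kept its direction, and its difference ran from 0.38 (without WT e) to 1.08 (without WT c). Both had a limma adjusted p of 0.85 to 1.0. *Aplnr* turned direction without WT e. The count of all genes called was 10, each listed at 0 in every library of a genotype. It was 18 with a pseudocount of 0.1, 17 with 0.01 and 0 of 12520 genes above 0 in every library (340 at an unadjusted p under 0.05), and it ran from 8 (without AM EC-KO g) to 39 (without WT a) with 1 library left out, with 22 without WT c, 27 without WT e and 21 without WT f. No list gene beside the 3 was called with or without WT e. No paired analysis was possible because the libraries carry letters, none of them shared between genotypes. With 3 against 4 libraries the exact test cannot give a p below 0.057.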

Other observations

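Of 140 list genes in the table beside the 3, 118 were tested and 0 passed FDR 0.1 with limma. At an unadjusted p under 0.05 there were 2 higher and 4 lower in AM EC-KO, where 1.65% of all tested genes were higher and 1.42% lower. Without WT e the counts of list genes were 2 higher and 1 lower of 117, and the share over all genes was not counted for that fit. *Sox17*, a transcription factor of arterial endothelium, had the smallest p of the endothelial subtype lists, at 6.09 (b), 8.69 (d) and 10.4 (g) FPKM in AM EC-KO, against 2.99 (a), 4.69 (c), 5.06 (e) and 3.78 (f) FPKM in WT. Its log2 difference was 0.87 (SE 0.23, unadjusted p = 0.0071, limma adjusted p = 0.95). Of 8 arterial genes it alone had an unadjusted p under 0.05. *Selp* had 178 (b), 156 (d) and 189.8 (g) FPKM in AM EC-KO, against 241 (a), 227 (c), 381 (e) and 213 (f) FPKM in WT (log2 difference -0.57, SE 0.21, unadjusted p = 0.0293, limma adjusted p = 0.95). None of 8 stalk and quiescent genes, 6 aerocyte genes and 8 general capillary genes had an unadjusted p under 0.05.

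The vascular endothelial list summed to 3648 to 4193 FPKM in AM EC-KO and 3881 to 4469 FPKM in WT, and the lymphatic list to 151 to 203 FPKM in AM EC-KO and 215 to 292 FPKM in WT. At an unadjusted p under 0.05, 1 of 14 tested vascular genes and 1 of 6 lymphatic genes were lower, beside 1.42% of all tested genes. The lymphatic gene was *Lyve1*, at 28.2 to 45.2 FPKM in AM EC-KO and 36.8 to 157 FPKM in WT. The rest of that list, *Prox1*, *Pdpn*, *Flt4*, *Ccl21a* and *Reln*, overlapped between the genotypes as well. Smooth muscle and pericyte genes summed to 501 to 675 FPKM in AM EC-KO and 329.9 to 629 FPKM in WT. Of 9 tested, 1 was higher at an unadjusted p under 0.05, beside 1.65% of all tested genes. Myeloid genes summed to 55.6 to 247 FPKM in AM EC-KO and 51.5 to 136 FPKM in WT, with *Ptprc* and *Itgam* listed at 0 in all libraries. Mesothelial genes summed to 2.36 to 4.67 FPKM in AM EC-KO and 0.406 to 7.44 FPKM in WT, with *Wt1* listed at 0.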
